A study of Homo sapiens with 38 samples.

Results

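Tight junctions seal the space between neighbouring epithelial cells near their apical end. Claudins form the paracellular strands and set their selectivity, occludin (OCLN) and the junctional adhesion molecule JAM-A (F11R) span the membrane beside them, and the scaffold ZO-1 (TJP1) ties the strands to actin. Podocalyxin (PODXL) is a negatively charged sialomucin of the apical surface that lines the lumen when pluripotent cells polarise around a cavity, and it carries surface epitopes widely used as markers of primed human pluripotent cells.

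The genes described here were 9 of the 57133 gene rows of the count table, taken by their symbols: the claudins CLDN3, CLDN4, CLDN6, CLDN7 and CLDN10, then OCLN, TJP1, F11R and PODXL. RNA was measured by 3′ tag sequencing, which counts reads near the polyadenylated end of each transcript, in 38 libraries of Shef6, 1 human embryonic stem cell line. The naive cells had been adapted to a serum coating. They were kept in PXGL, which contains LIF and blocks MEK, tankyrase (by XAV939) and PKC, and were plated on that coating or on the basement membrane extract Geltrex. The library names of the naive samples read PXGLY where their titles read PXGL. The study added a ROCK inhibitor to the naive medium for a time after passaging, and whether the Y refers to it was not known here. All other cells had left PXGL and were on Geltrex, undergoing capacitation, the exit from the naive state towards primed pluripotency. The first experiment (Ex1, 30 libraries) followed N2B27, a basal medium without added factors, and the defined medium E8 from day 2 through days 3, 4 and 6 until day 8, sampled mTeSR from day 4, and included naive cells of both coatings. The second (Ex2, 8 libraries) compared Geltrex-plated naive cells with day 4 cells that had received N2B27 alone, with XAV939 (XAV), or with FGF2, XAV939 and Activin A together (FAX). Each of the 19 groups had 2 libraries, and the naive libraries of Ex2 are titled as day 0 although their library names carry day 4. Nothing in the labels says whether replicates came from separate cultures, and the study calls them technical replicates in some places and biological ones in another. The p-values therefore measure only the spread between these libraries, which may be technical.

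The unit of level is CPM, a count divided by its library's total after TMM normalization (trimmed mean of M values, which evens out the composition of the libraries). A count of 3 corresponded to between 0.52 and 1.06 CPM, and total counts ran from 3038046 to 5612354 per library. Differences were tested with edgeR's quasi-likelihood test in fits over all 16674 genes that passed a filter on low counts, and p-values were adjusted by Benjamini-Hochberg over those genes. A gene was called when its adjusted p was under 0.05 and its log2 fold change was beyond 1 in size. "Rose" and "fell" are used below only for called differences. Of the 9 genes, 8 passed the filter and CLDN3 did not. In bulk RNA, fewer cells that express a gene and less RNA per cell cannot be told apart. Naive and primed marker sums separated naive cells from those of day 8. The summed level of 6 naive markers was 1010 to 1360 CPM in the naive libraries and 366 to 464 CPM at day 8 of N2B27, E8 or mTeSR, while that of 5 primed markers was 18.8 to 24.1 CPM in naive cells and 474 to 557 CPM at day 8. At day 2 of N2B27 the naive sum was still 872 to 952 CPM with 1 of the 6 naive markers called lower and 1 higher, and in XAV at day 4 it was 705 to 739 CPM with 2 called lower.

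Against the 6 naive libraries the members behaved very differently from one another. PODXL rose in all 15 comparisons, by 12.1-fold at day 2 of N2B27 and by 33-fold at day 8 of E8. OCLN rose in 6 of the 15, F11R fell in 5, CLDN4 rose in 3, and CLDN6, CLDN7, CLDN10 and TJP1 were called in none. F11R was nonetheless below all 6 naive libraries in every one of the 15 comparisons, and TJP1 had a positive sign in all 15.

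**Figure D1:**
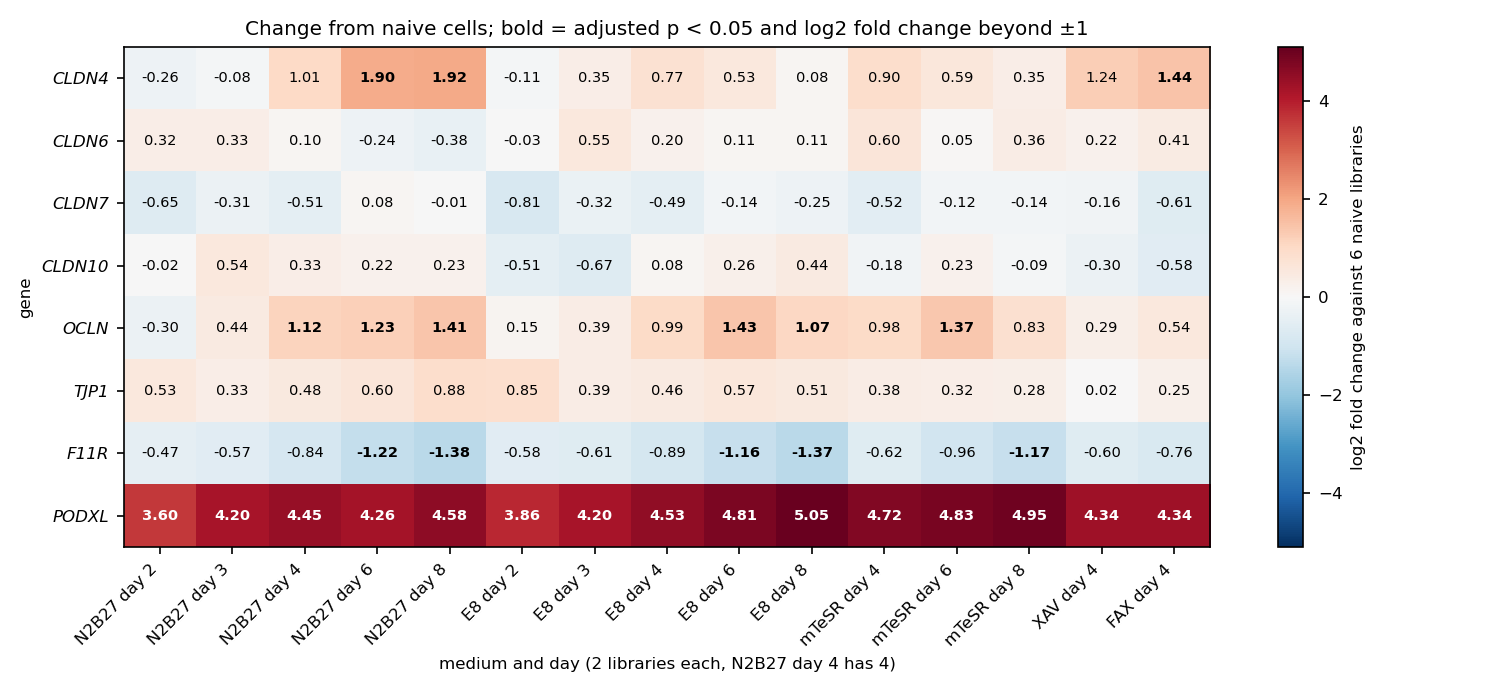
Log2 fold change of the 8 tested genes (rows) against the 6 naive libraries in 15 combinations of medium and day (columns), with called values in bold. PODXL is between 3.60 and 5.05 throughout, OCLN reaches 1.41 in N2B27 at day 8, and F11R lies between -1.38 and -0.47.

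The share of members called was close to the share of all genes called in most comparisons. In N2B27, 1 of 8 was called at day 2 beside 16.2% of all tested genes, 1 at day 3 beside 15.6%, 2 at day 4 beside 18.4%, 4 at day 6 beside 23.1% and 4 at day 8 beside 23.9%. In E8 it was 1 at day 2 beside 24.6%, 1 at day 3 beside 17.8%, 1 at day 4 beside 20.8%, 3 at day 6 beside 23.3% and 3 at day 8 beside 27.5%. In mTeSR 1 was called at day 4 beside 19.8%, 2 at day 6 beside 22.5% and 2 at day 8 beside 25.1%. XAV gave 1 beside 17% and FAX 2 beside 17.1%. The median log2 fold change of the 8 members was 0.56 at day 8 of N2B27, 0.28 in E8 and 0.32 in mTeSR, where that of all genes was -0.031, 0.002 and -0.023.

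The RefSeq start sites of 7 of the 9 genes were found (13 windows in all, GRCh38.p14), and the 250 bases before each were searched on both strands for the E-box CAGGTG, the sequence that the epithelial repressors of the SNAI and ZEB families bind. The matches are shown because OCLN, which rose, and TJP1 and CLDN7, which were not called, carry them, while CLDN4, which also rose, does not. CLDN3, CLDN6 and CLDN10 had no match in these windows either. An E-box match was in 4 of the 13 windows and in 17.5% of all 35116 promoter windows of this length. Of 3 other motifs searched in the same way, the AP-2 motif GCCNNNGGC was in 2 of the 13 (CLDN3 and CLDN6) and in 19.8% of all windows, and CATTCC of the TEAD factors and the TATA box TATAAA were in none of the 13 and in 11.9% and 10.7% of all. In the lines below, each of 30 bases on the strand of the gene, the capitals mark the match (CAGGTG, or CACCTG where it reads on the other strand).
OCLN site 1, chr5:69492502-69492531 (+): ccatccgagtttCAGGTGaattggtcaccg
OCLN site 2, chr5:69492645-69492674 (+): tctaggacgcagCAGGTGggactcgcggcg
TJP1 site 1, chr15:29969120-29969149 (-): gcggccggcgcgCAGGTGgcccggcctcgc
CLDN7 site 1, chr17:7262635-7262664 (-): tttcttcctcctCACCTGggcaaggagggg
CLDN7 site 2, chr17:7262596-7262625 (-): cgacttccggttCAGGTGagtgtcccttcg
CLDN7 site 3, chr17:7262481-7262510 (-): cctacatatactCAGGTGcgcccCACCTGt
The OCLN matches began 33 and 133 bases before 2 different start sites, that of TJP1 began 88 bases before its start, and those of CLDN7 began 174, 135, 20 and 9 bases before 1 of its starts. All 30 bases of OCLN site 1 and of the CLDN7 sites lay in exons that GENCODE release 44 annotates for the same gene, 15 of the 30 bases of OCLN site 2 did, and none of the TJP1 site did. A match is a description of the letters and does not show that a factor binds there.

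Of the 5 genes listed as mesenchymal regulators, which include those repressors, 4 were tested and 2 were called at day 8 of N2B27, beside 23.9% of all genes. SNAI2 was at 7.41 and 9.47 CPM in N2B27 at day 8 and at no more than 1 count in any naive library. ZEB2 had a mean of 7.55 ± 1.48 CPM (SD, n = 2) there and 0.619 ± 0.648 CPM (n = 6) in naive cells, a log2 fold change of 3.46 ± 0.522 (SE, adjusted p = 1.35e-06). At the same day ZEB2 was also called in E8, at a mean of 2 CPM, and SNAI2 in mTeSR, on 1 and 4 counts. SNAI1, at 19.1 ± 2.6 CPM in naive cells and 25.4 ± 3 CPM at day 8 of N2B27, was not called, TWIST1 was not called, and ZEB1 reached at most 5 counts in any library. Their part in the levels of the junction genes was not tested.

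CLDN3 and CLDN4 lie side by side on chromosome 7 (CLDN3 at chr7:73768997-73770270 on the minus strand, CLDN4 at chr7:73799542-73832690 on the plus strand, 29271 bases apart, GENCODE release 44 on GRCh38). CLDN3 was barely detected. Its highest count was 10, it was at 0 counts in 12 of the 38 libraries, and the naive libraries held 1 read between them. In N2B27 it had 4 and 8 counts at day 4 of Ex1 but 2 and 1 at day 4 of Ex2, then 7 and 5 at day 6 and 6 and 6 at day 8. In mTeSR it had 9 and 1 counts at day 4, 10 and 4 at day 6 and 2 and 2 at day 8. In E8 it had at most 3 up to day 6 and 8 and 4 at day 8. No test was run on counts this low.

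CLDN4, whose protein restricts the passage of sodium through the junction, was low throughout, rose in N2B27 at days 6 and 8, and was not called in E8 or mTeSR at any day. The naive libraries ran from 0.361 to 3.41 CPM with a median of 1.11. In N2B27 CLDN4 was at 1.4 and 0.712 CPM on day 2, 4.17 and 5.64 CPM on day 6 and 3.52 and 6.32 CPM on day 8. Both day 6 and both day 8 libraries were above every naive library. The log2 fold change was 1.9 ± 0.468 at day 6 (SE, 3.73-fold, adjusted p = 0.00117) and 1.92 ± 0.464 at day 8 (3.78-fold, adjusted p = 0.000914). In E8 at day 8 CLDN4 was at 0.937 and 1.88 CPM, and in mTeSR at 1.36 and 1.96 CPM, inside the range of the 6 naive libraries. The upper part of that range came from Ex2, and the 4 naive libraries of Ex1 did not exceed 1.12 CPM, below both mTeSR libraries at day 8. Against naive Geltrex cells of Ex1 alone, the day 8 difference was 2.77 ± 0.569 in N2B27 (6.82-fold, adjusted p = 0.000155), 0.93 ± 0.698 in E8 (adjusted p = 0.285) and 1.2 ± 0.708 in mTeSR (0.172), and the day 6 difference in N2B27 was 2.75, also called. These levels rest on 16 to 35 counts per library in N2B27 at days 6 and 8 and on 2 to 10 counts in the naive libraries. Without replicate 2 of N2B27 at day 8, the day 8 difference was 1.42 and its adjusted p was 0.0882, so that call rests on 1 library.

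The difference between media was itself tested at each shared day. At day 8, CLDN4 was lower in E8 than in N2B27 by a log2 fold change of -1.84 ± 0.51 (adjusted p = 0.00984), the 1 of 8 members called beside 7.29% of all genes. It was also lower in mTeSR than in N2B27, by -1.57 ± 0.522 (adjusted p = 0.0469), again the 1 member called, beside 3.8% of all genes. At day 6 the same differences were -1.37 ± 0.496 and -1.31 ± 0.486, with adjusted p-values of 0.0557 and 0.0882 that missed the threshold. The test of the whole course did not separate E8 from N2B27 for CLDN4 (adjusted p = 0.179), nor mTeSR from N2B27 (adjusted p = 0.689). Both day 8 calls were lost when 1 library was left out. Without replicate 2 of N2B27 the differences were -1.34 and -1.08 for E8 and mTeSR (adjusted p = 0.174 and 0.4). Leaving out replicate 1 of E8 gave -1.41 (adjusted p = 0.162), and leaving out replicate 1 or 2 of mTeSR gave -1.34 or -1.86 (adjusted p = 0.263 and 0.146). The mTeSR call was also lost with DESeq2 (adjusted p = 0.139), without a filter on low counts (0.061) and with the replicate number as a block (0.0509).

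Marker sums of other cell types were also higher in N2B27 at day 8. The summed level of 8 trophectoderm markers was 17.7 to 26.2 CPM in naive libraries, 63.9 to 76.7 CPM in N2B27 at day 8, 23.4 to 26.4 CPM in E8 and 20.6 to 21.8 CPM in mTeSR at that day. VGLL1, 1 of the 8, was at 0 at day 8 in all 3 media, and KRT7 was at 0 in mTeSR. For 6 primitive endoderm markers the sums were 0.683 to 4.21 CPM in naive cells, 170 to 192 CPM in N2B27, 18.4 to 22.7 CPM in E8 and 84 to 85.5 CPM in mTeSR at day 8. All 6 had reads in each of these media, but APOA1 in E8 was at just 0.118 ± 0.166 CPM (SD, n = 2) and was not called. For 5 amnion markers the sums were 14.7 to 24.2, 41.9 to 51.3, 39.7 to 41.9 and 24.6 to 27.4 CPM in the same order, with VTCN1 at 0 in N2B27. Those of 6 fibroblast markers were 1.97 to 4.44, 162 to 172, 102 to 103 and 134 to 150 CPM, with DCN at 0 in N2B27 and mTeSR and LUM at 0 in mTeSR, and most of these sums was the collagen gene COL1A2, with means of 140, 64.6 and 121 CPM in N2B27, E8 and mTeSR. Not every listed marker went with its sum at day 8. Of 4 amnion markers tested, 2 were called higher and 1 lower in E8 and in mTeSR, and 3 higher in N2B27. Of 6 trophectoderm markers tested, 4 were called higher and 1 lower in N2B27, 1 each way in E8, and none in mTeSR. Of all genes, 23.9% were called in N2B27, 27.5% in E8 and 25.1% in mTeSR. The part of these marker genes in the CLDN4 level was not tested.

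CLDN4 also differed between the experiments. Naive cells on Geltrex had 3.41 and 2.21 CPM in Ex2 and 1.12 and 0.361 CPM in Ex1, a log2 fold change of 1.93 ± 0.656 (adjusted p = 0.0426), and this was the 1 member called between the experiments' naive cells beside 4.67% of all genes. Against naive Geltrex cells of its own experiment, N2B27 at day 4 was higher by 2.17 ± 0.594 in Ex1 (adjusted p = 0.00478), where 16.6% of all genes were called, and lay at -0.55 ± 0.576 in Ex2 (adjusted p = 0.468), where 21.8% were. The difference between those 2 changes passed its own test (adjusted p = 0.0303, beside 11.7% of all genes). CLDN4 was called in FAX against the pooled naive libraries (1.44 ± 0.51, adjusted p = 0.0268), and against the naive libraries of Ex2 its log2 fold change in FAX was 0.36 ± 0.52 (adjusted p = 0.616). Of these calls, 3 were lost in other fits. The call between naive cells was lost without replicate 2 of Ex1 (1.29, adjusted p = 0.355), without replicate 1 of Ex2 (1.61, 0.251) or without its replicate 2 (2.22, 0.0717). That of the difference between the changes was lost without replicate 2 of naive cells in Ex1 (adjusted p = 0.188) or replicate 1 in Ex2 (0.142), and without replicate 2 of N2B27 in Ex1 (0.193) or Ex2 (0.151). The FAX call was lost without replicate 1 of FAX (1.23, adjusted p = 0.218), without its replicate 2 (1.63, 0.0734) or without replicate 2 of naive Geltrex cells in Ex1 (1.23, 0.0547).

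**Figure D2:**
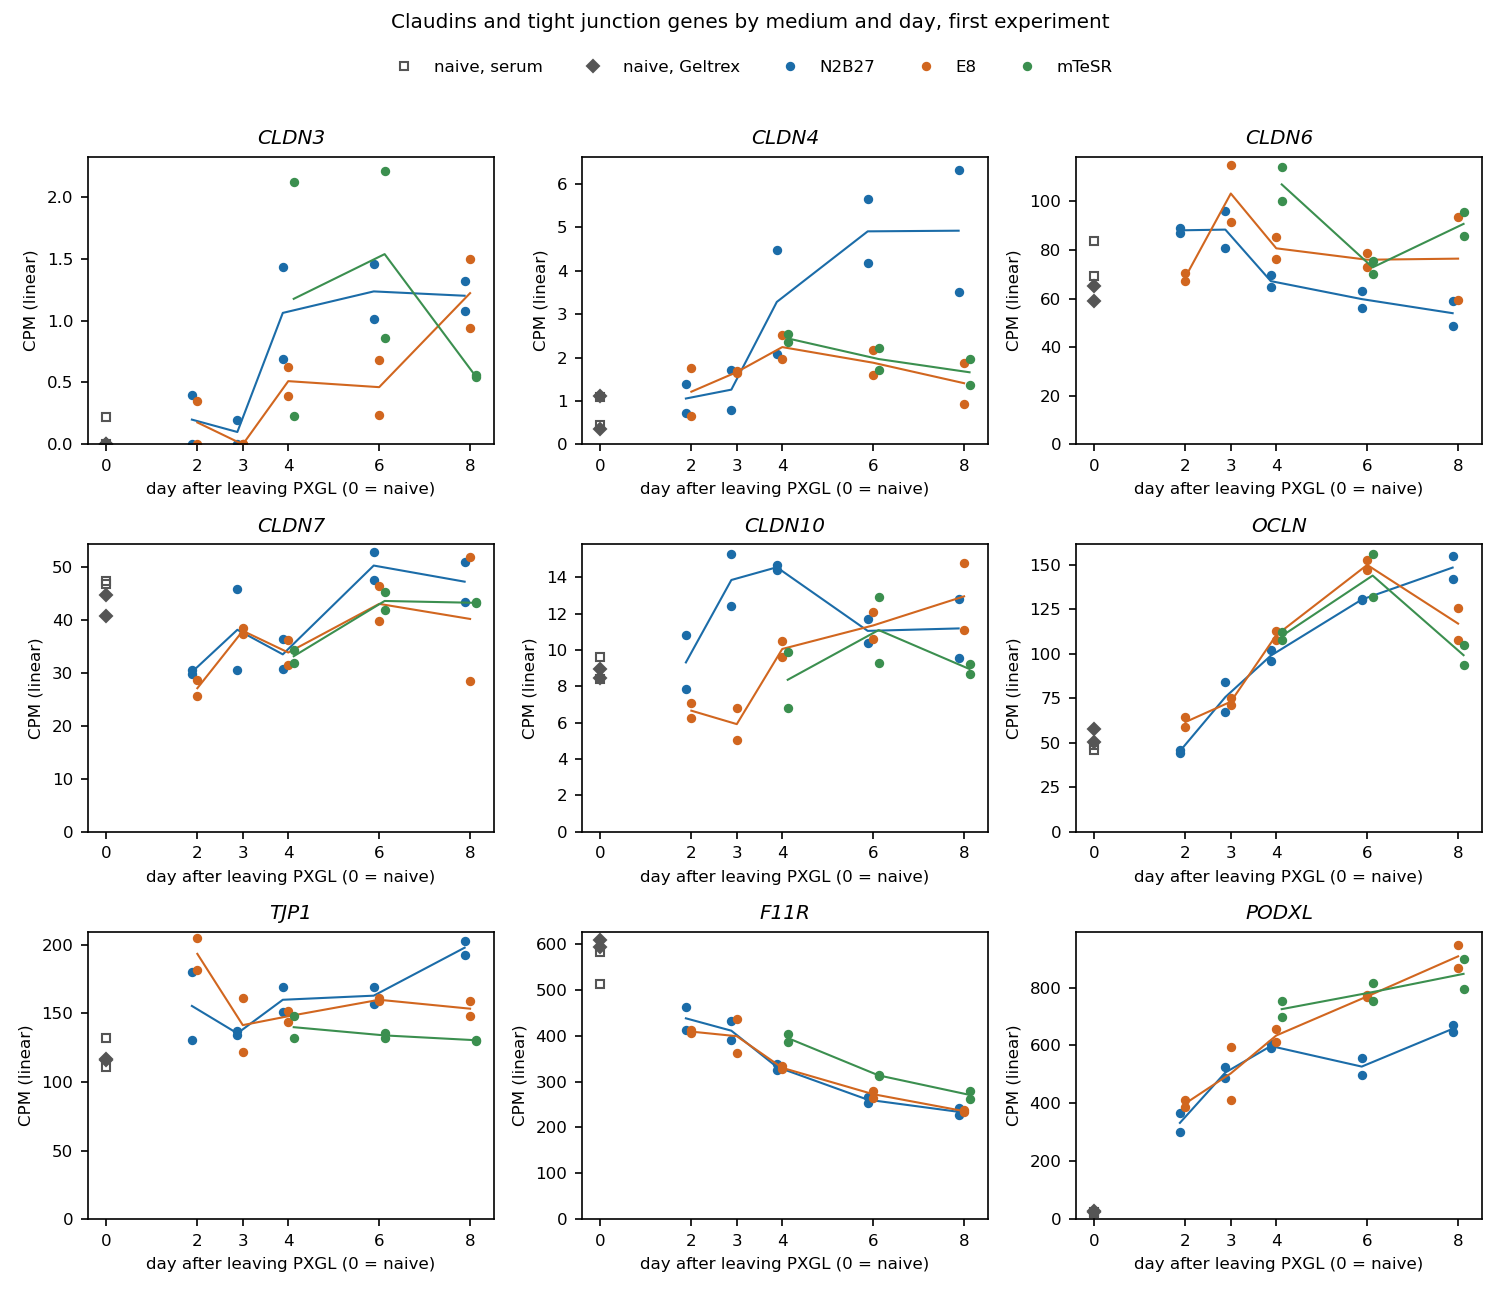
CPM on a linear scale of the 9 genes against the day in N2B27, E8 or mTeSR in Ex1, with naive cells on serum or Geltrex at day 0. Points are libraries and lines join the means of 2 libraries. PODXL leaves the naive range by day 2, the mean of F11R is lower at every later sampled day in each medium, and OCLN reaches 130 to 156 CPM at day 6.

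CLDN6, a claudin of embryonic epithelia and of pluripotent cells (chr16:3014712-3020071, minus strand), had means between 54 CPM (N2B27 at day 8) and 107 CPM (mTeSR at day 4) and was called in none of the 15 comparisons with naive cells. Its naive libraries ran from 59.2 to 83.7 CPM with a median of 70.2. In N2B27 it was at 87 and 89.2 CPM on day 2 and at 48.9 and 59.1 CPM on day 8, the last below every naive library (log2 fold change -0.38 ± 0.154, adjusted p = 0.0422). In mTeSR on day 8 it was at 85.8 and 95.7 CPM, above every naive library (0.36 ± 0.148, adjusted p = 0.0427). Against naive Geltrex cells of Ex1 alone, the N2B27 difference at day 8 was -0.2 ± 0.165 (adjusted p = 0.349). In that comparison E8 lay at 0.29 ± 0.162 (adjusted p = 0.145) and mTeSR at 0.55 ± 0.163 (adjusted p = 0.00662). At day 8 CLDN6 was higher in mTeSR than in N2B27 by 0.74 ± 0.165 (adjusted p = 0.00257), under the fold threshold. The E8 libraries of that day were far apart, at 59.4 and 93.5 CPM, the lower of them level with the higher N2B27 library. CLDN9, 206 bases away, had at most 2 counts in any library, and TNFRSF12A overlaps CLDN6 on the other strand.

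CLDN7, a claudin spread along the lateral membrane of epithelial cells (chr17:7259903-7263983, minus strand), was below every naive library in 7 of the 15 comparisons, namely day 2 in N2B27 and E8, day 3 in E8 and day 4 in N2B27, E8, mTeSR and FAX. It was inside the naive range at days 6 and 8 in N2B27 and mTeSR. Naive libraries ran from 40.8 to 55.3 CPM. Day 2 gave 29.8 and 30.6 CPM in N2B27 and 28.7 and 25.6 CPM in E8, all below every naive library. The log2 fold changes at day 2 were -0.65 ± 0.166 (adjusted p = 0.00248) and -0.81 ± 0.178 (adjusted p = 0.000372), which did not pass the fold threshold. Day 4 gave 30.7 to 36.4 CPM in N2B27 over both experiments, 31.5 and 36.3 in E8 and 34.4 and 32 in mTeSR. FAX was at 33.1 and 29.1 CPM and XAV at 44.9 and 40.2 CPM. Against naive Geltrex cells of the same experiment, N2B27 at day 4 lay at -0.35 ± 0.181 in Ex1 (adjusted p = 0.144). In Ex2 it lay at -0.68 ± 0.19 (adjusted p = 0.00426), XAV at -0.33 ± 0.182 (0.162) and FAX at -0.78 ± 0.191 (0.00139). Both XAV libraries were below the naive libraries of Ex2, which had 51.2 and 55.3 CPM. On day 6 CLDN7 was at 47.7 and 53 CPM in N2B27 and at 42 and 45.3 CPM in mTeSR, whereas E8 had 1 library below the naive range on day 6 (39.8 CPM) and on day 8 (28.5 CPM). At day 8 the log2 fold change of CLDN7 was -0.01 in N2B27 (adjusted p = 0.97). It was -0.25 in E8 and -0.14 in mTeSR (adjusted p = 0.197 and 0.519). The difference between day 8 and day 4 in N2B27 was below the fold threshold (0.49 ± 0.179, adjusted p = 0.0478). ELP5 overlaps CLDN7 on the other strand and ENSG00000262302 overlaps it on the same strand. Same-strand overlaps are also annotated for TJP1 (ENSG00000259644) and F11R (ENSG00000270149). Whether reads are shared with these genes was not tested.

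CLDN10, which has cation-selective and anion-selective isoforms (chr13:95433604-95579759, plus strand), separated E8 from N2B27 early. On day 3 it was at 15.3 and 12.4 CPM in N2B27 and at 5.03 and 6.81 CPM in E8. The naive libraries ran from 8.41 to 13.3 CPM, above both E8 libraries and overlapping those of N2B27. CLDN10 was lower in E8 by a log2 fold change of -1.20 ± 0.26 (2.3-fold, adjusted p = 0.00483), the 1 member called in that comparison beside 1.68% of all genes. By day 8 E8 was at 11.1 and 14.8 CPM and N2B27 at 12.8 and 9.57 CPM, which overlap. The test of the course over days 2 to 8 separated the 2 media (adjusted p = 0.037, beside 11% of all genes). In mTeSR at day 4, CLDN10 was at 6.82 and 9.9 CPM against 14.4 and 14.7 CPM in N2B27 (-0.79 ± 0.242, adjusted p = 0.0518). With just the 4 libraries of that day fitted, the day 3 call was lost (adjusted p = 0.373), and the course call was lost without a filter on low counts (0.0703) or with DESeq2 (0.109). The day 3 difference was -1.04 without replicate 1 of N2B27 (adjusted p = 0.0812) and -1.01 without replicate 1 of E8 (adjusted p = 0.0728). The same libraries ended the call of the course (adjusted p = 0.118 and 0.111). It was also lost when 7 other libraries were left out in turn, namely replicate 2 of N2B27 at day 4 (0.051), replicate 1 at day 6 (0.0605), replicate 2 at day 8 (0.0962), and in E8 replicate 2 at day 2 (0.0523), replicate 1 at day 4 (0.0507), replicate 2 at day 6 (0.0701) and replicate 2 at day 8 (0.0717).

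The N2B27 level of CLDN10 at day 4 was not the same in both experiments. It was 14.4 and 14.7 CPM in Ex1 and 10.2 and 7.85 CPM in Ex2, a difference of -0.69 ± 0.242 that missed the threshold (adjusted p = 0.106). No member was called between the N2B27 day 4 libraries of the experiments, beside 1.01% of all genes. The antisense gene CLDN10-AS1 had at most 1 count in any library.

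OCLN (chr5:69492292-69558104, plus strand) encodes the tetraspan protein occludin, which regulates the assembly of the junction. It rose during capacitation in N2B27, E8 and mTeSR. Naive libraries ran from 46.1 to 67.5 CPM with a median of 53.9. In N2B27 OCLN was at 46.2 and 44.4 CPM on day 2, 83.9 and 67.5 on day 3, 96 and 102 on day 4 in Ex1, 130 and 131 on day 6 and 142 and 155 on day 8. The libraries of day 2 lay at or just below the lowest naive one, and those from day 4 on were above all naive libraries. The log2 fold change against naive cells was 1.12 ± 0.113 at day 4 over both experiments (adjusted p = 4.31e-10), 1.23 ± 0.136 at day 6 and 1.41 ± 0.135 at day 8 (2.66-fold, adjusted p = 1.15e-10). The day 4 call depended on the naive libraries: against Geltrex naive cells of the same experiment the changes of Ex1 and Ex2 averaged 0.99 (adjusted p = 5e-12), and they lay on either side of the fold threshold.

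In E8 and mTeSR the OCLN level was highest at day 6 and lower at day 8. In E8 it was at 113 and 108 CPM on day 4, 147 and 153 on day 6 and 108 and 126 on day 8. In mTeSR it was at 112 and 108 CPM on day 4, 132 and 156 on day 6 and 105 and 93.5 on day 8. All libraries of days 4 to 8 were above the naive range in both media. The log2 fold change was 1.43 ± 0.136 at day 6 and 1.07 ± 0.138 at day 8 in E8, and 1.37 ± 0.136 at day 6 in mTeSR, all called. At day 8 of mTeSR it was 0.83 ± 0.143 (adjusted p = 1.05e-05), under the fold threshold. Without replicate 2 of E8 at day 8 the E8 value was 0.98 (adjusted p = 3.66e-05), also under it.

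The course of OCLN in N2B27 differed from that in E8 and from that in mTeSR. Over days 2 to 8, E8 differed from N2B27 (adjusted p = 0.0112, beside 11% of all genes), a call that was lost without a filter on low counts. Over days 4 to 8 mTeSR differed from N2B27 (adjusted p = 0.00462, beside 2.18% of all genes). The test of mTeSR against E8 over days 4 to 8 gave an adjusted p of 0.793, beside 0.918% of all genes. At day 2 E8 was higher by a log2 fold change of 0.45 ± 0.127 (adjusted p = 0.0173, libraries not overlapping) and at day 8 lower by -0.34 ± 0.108 (adjusted p = 0.0231). At day 8 mTeSR was lower than N2B27 by -0.58 ± 0.111 (adjusted p = 0.000543). From day 4 to day 8 OCLN was higher by 0.59 ± 0.108 in N2B27 (adjusted p = 0.000138), by 0.08 ± 0.109 in E8 (adjusted p = 0.631) and moved by -0.14 ± 0.113 in mTeSR (adjusted p = 0.392). None of these single-day differences passed the fold threshold. Without replicate 2 of N2B27 at day 8 the course tests gave adjusted p-values of 0.0519 for E8 and 0.0576 for mTeSR, and without replicate 2 of mTeSR at day 8 the latter was 0.0904.

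In Ex2, OCLN was the member that the tankyrase inhibitor separated. N2B27 at day 4 gave 144 and 147 CPM, XAV gave 68 and 68.7, FAX gave 84.6 and 77.4, and naive cells on Geltrex gave 66.9 and 67.5. The XAV libraries sat just above the naive ones and far below those of N2B27, and the FAX libraries lay between. OCLN was lower in XAV than in N2B27 by a log2 fold change of -1.09 ± 0.113 (2.12-fold, adjusted p = 1.25e-07), the 1 of 8 members called beside 0.57% of all genes. In FAX it was lower by -0.84 ± 0.113 (adjusted p = 2.63e-05), under the fold threshold. FAX and XAV, which differ by FGF2 and Activin A, differed by 0.24 ± 0.116 (adjusted p = 0.871, interval of 2 SE from 0.01 to 0.47).

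Against naive cells of the same experiment, the OCLN level of XAV lay at 0.02 ± 0.12 (adjusted p = 0.901, interval of 2 SE from -0.22 to 0.26), beside 19.6% of all genes called. FAX lay at 0.27 ± 0.12 (adjusted p = 0.0745), beside 21%. N2B27 at day 4 was higher by 1.11 ± 0.117 in Ex2 and by 0.88 ± 0.115 in Ex1, and the 2 changes did not differ by their test (adjusted p = 0.411). The N2B27 libraries themselves were higher in Ex2 than in Ex1 by 0.55 ± 0.109 (adjusted p = 0.0027). OCLNP1, an unprocessed pseudogene of OCLN (chr5:71074225-71093193, minus strand), had up to 16 counts in a library, so some reads may be shared between the 2.

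**Figure D3:**
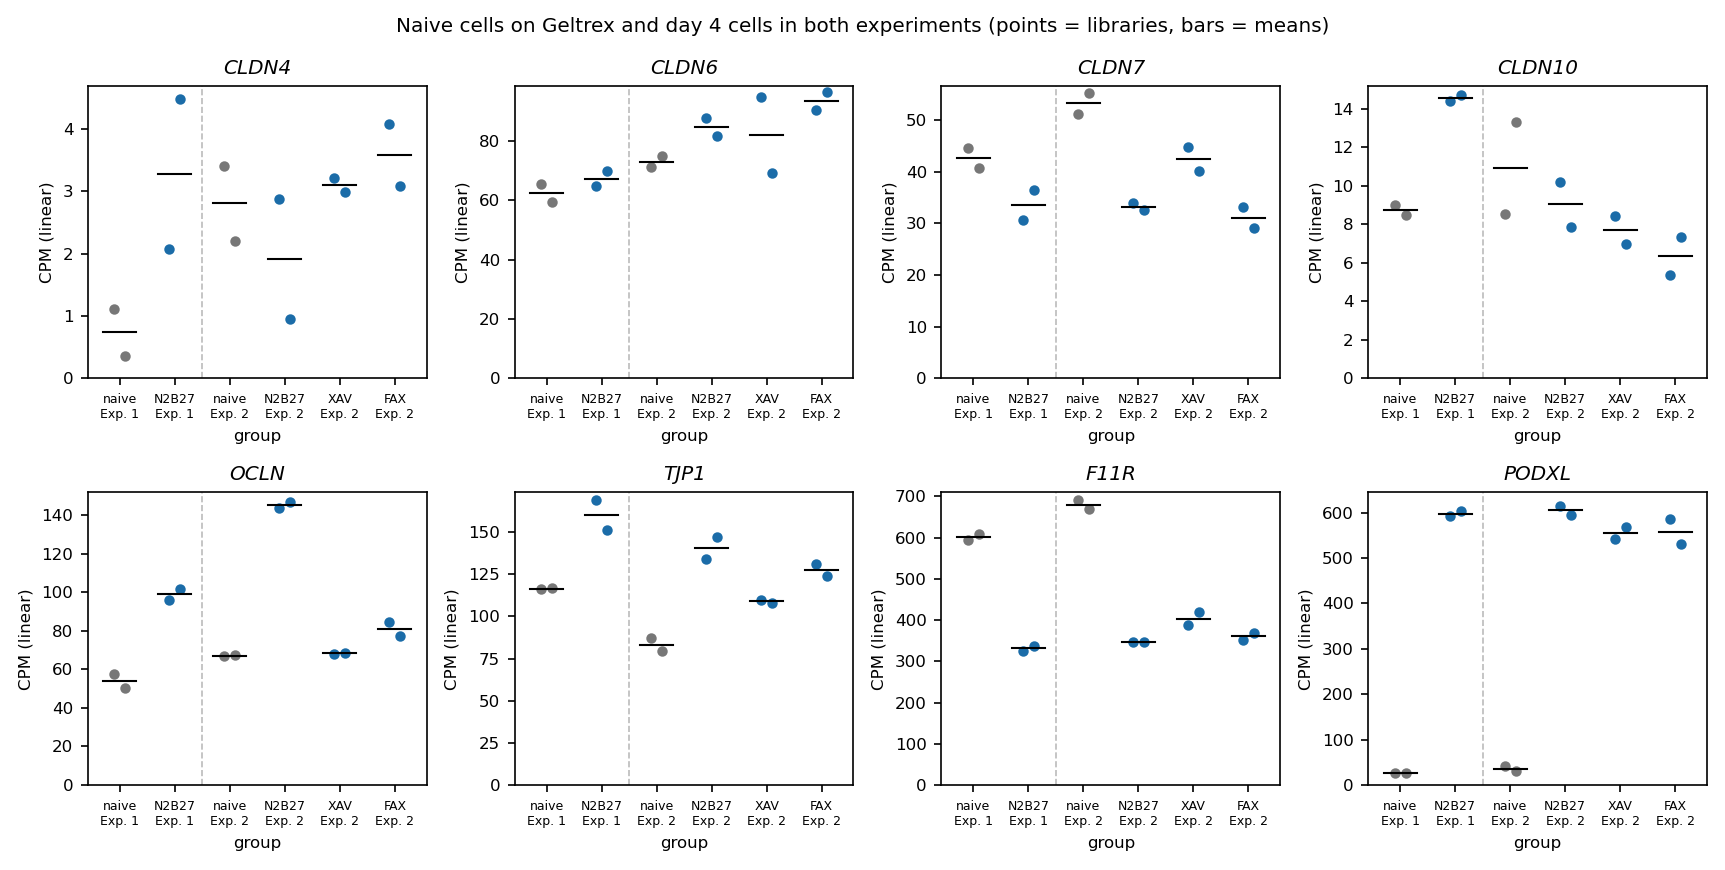
CPM on a linear scale of the 8 tested genes in naive cells on Geltrex and in day 4 cells of both experiments, with points for libraries and bars for the means of 2. OCLN in XAV (68 and 68.7 CPM) sits beside naive cells of the same experiment (66.9 and 67.5), while PODXL in XAV (543 and 569) sits beside N2B27 (615 and 595).

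TJP1 (chr15:29699367-29968915, minus strand) was higher in capacitating cells by less than the fold threshold. Naive libraries ran from 79.4 to 132 CPM with a median of 114. In N2B27 at day 8 it was at 203 and 193 CPM, in E8 at 159 and 148, and in mTeSR at 131 and 130, so that the first 2 media were above every naive library and mTeSR was not. Its log2 fold change at day 8 was 0.88 ± 0.128 in N2B27 (adjusted p = 7.67e-07) and 0.51 ± 0.132 in E8 (adjusted p = 0.00152). In mTeSR it was 0.28 ± 0.136 (adjusted p = 0.0918). TJP1 had an adjusted p under 0.05 in 10 of the 15 comparisons. At day 8 it was lower than in N2B27 by -0.37 ± 0.121 in E8 (adjusted p = 0.031) and by -0.6 ± 0.124 in mTeSR (adjusted p = 0.0013).

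The naive level of TJP1 depended on the experiment. Naive cells on Geltrex had 116 and 117 CPM in Ex1 and 87.1 and 79.4 CPM in Ex2 (log2 fold change -0.49 ± 0.131, adjusted p = 0.00966). In XAV TJP1 was at 110 and 108 CPM, which is 0.02 ± 0.136 against the pooled naive libraries and 0.39 ± 0.132 against those of Ex2 (adjusted p = 0.0186). Against N2B27 of Ex2, at 134 and 147 CPM, XAV lay at -0.37 ± 0.125 (adjusted p = 0.201).

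F11R (chr1:160995211-161021343, minus strand), an immunoglobulin-fold adhesion molecule that helps to place the polarity complex at the forming junction, fell in all 3 media. Naive libraries ran from 513 to 691 CPM with a median of 601. In N2B27 it was at 463 and 413 CPM on day 2, 390 and 432 on day 3, 326 and 338 on day 4 in Ex1, 267 and 254 on day 6 and 242 and 226 on day 8. No library outside the naive group reached the lowest naive one. The log2 fold change was -1.38 ± 0.1 at day 8 of N2B27 (2.6-fold, adjusted p = 1.33e-13), -1.37 ± 0.1 in E8 and -1.17 ± 0.0991 in mTeSR (2.25-fold, adjusted p = 6.77e-12).

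The lowest F11R levels were N2B27 and E8 at day 8, with means of 234 and 235 CPM that overlap, then N2B27 at day 6 (261), mTeSR at day 8 (271) and E8 at day 6 (272), which overlap one another, and then mTeSR at day 6 (314). At day 4 the means were 403 CPM in XAV, 395 in mTeSR, 360 in FAX, 339 in N2B27 over both experiments and 330 in E8. From day 4 to day 8 F11R was lower by -0.51 ± 0.0918 in N2B27 (adjusted p = 0.000114), by -0.49 ± 0.0921 in E8 (0.00022) and by -0.54 ± 0.0924 in mTeSR (4.73e-05). None of the differences between E8, mTeSR and N2B27 at matched days had an adjusted p under 0.05 (lowest 0.0639, mTeSR against N2B27 at day 6), and the course tests gave adjusted p-values of 0.866, 0.98 and 0.978. No member was called from day 4 to day 8, beside 7.5% of all genes in N2B27, 8.28% in E8 and 9.25% in mTeSR.

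PODXL (chr7:131500262-131558217, minus strand) had the largest change of the members. Naive libraries ran from 20.6 to 41 CPM with a median of 26.2. In N2B27 it was at 365 and 300 CPM on day 2, 487 and 526 on day 3, 592 and 604 on day 4 in Ex1, 555 and 499 on day 6 and 670 and 645 on day 8. Libraries outside the naive group ran from 300 to 947 CPM. The log2 fold change was 3.6 ± 0.127 at day 2 (12.1-fold, adjusted p = 1.75e-21) and 4.58 ± 0.125 at day 8 (23.9-fold, adjusted p = 4.26e-25).

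In E8 and mTeSR PODXL went higher than in N2B27. In E8 it was at 773 and 766 CPM on day 6 and 947 and 869 on day 8, and in mTeSR at 752 and 817 on day 6 and 796 and 899 on day 8, all above the N2B27 libraries of the same day. The difference from N2B27 was 0.55 ± 0.12 at day 6 and 0.47 ± 0.12 at day 8 in E8 (adjusted p = 0.00172 and 0.00543), and 0.57 ± 0.12 and 0.37 ± 0.12 in mTeSR (adjusted p = 0.0021 and 0.0435). These were below the fold threshold, as was the difference between day 8 and day 4 in E8 (0.52 ± 0.12, adjusted p = 0.0019). XAV and FAX had log2 fold changes of -0.12 ± 0.12 and -0.12 ± 0.121 from N2B27 (adjusted p = 0.857 and 0.877).

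In the remaining comparisons no member was called. Between E8 and N2B27 this held at day 2 beside 4.55% of all genes, at day 4 beside 2.49% and at day 6 beside 5.28%. Between mTeSR and N2B27 none was called at day 4 beside 1.58% and at day 6 beside 2.62%. Between mTeSR and E8 none was called at day 4, 6 or 8, beside 0.084%, 1.1% and 5.31%, and none of the 24 tests had an adjusted p under 0.05. FAX against N2B27 gave no call beside 0.336%, and FAX against XAV none beside 0.012%. Geltrex against the serum coating in naive cells gave no call beside 0.048%, and the largest difference there was that of CLDN6, at -0.3 ± 0.163 (adjusted p = 0.413).

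Over the 19 group means, the strongest relations were those of F11R. Pearson's r of the mean log2 CPM was -0.825 between F11R and PODXL, -0.792 between F11R and OCLN, -0.678 between F11R and TJP1 and 0.668 between OCLN and PODXL, as a description over 19 groups that share naive cells and days. CLDN6 and CLDN7 were at -0.432. Among the 9333 genes with a mean of at least 10 CPM, those most like PODXL were CAV1 and CCND2 (r = 0.994 each) and PTPRZ1 (0.992), and those most like OCLN were NPPB (0.93), ACTC1 (0.923) and CDH13 (0.919). Those most like F11R were PYGB (0.964), PQLC1 (0.963) and ZNF568 (0.961). For TJP1 the first were MID1IP1 (0.892), FAM169A (0.886) and CTNND1 (0.873). The best values for the claudins were lower in CLDN10 (GPX8, 0.768) and CLDN6 (MPDU1, 0.804) than in CLDN4 (RBCK1, 0.875) and CLDN7 (PRCP, 0.92).

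A list of 72 further tight junction and apical genes, of which 53 were tested, was set beside the members. At day 8 of N2B27, 7 of the 53 rose and 5 fell, 22.6% of the list beside 23.9% of all genes. In E8 9 rose and 4 fell, 24.5% beside 27.5%, and in mTeSR 9 rose and 5 fell, 26.4% beside 25.1%. The median log2 fold change of the list was 0.2, 0.17 and 0.17 in N2B27, E8 and mTeSR. In XAV and FAX at day 4 it was 18.9% beside 17% and 24.5% beside 17.1%.

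**Figure D4:**
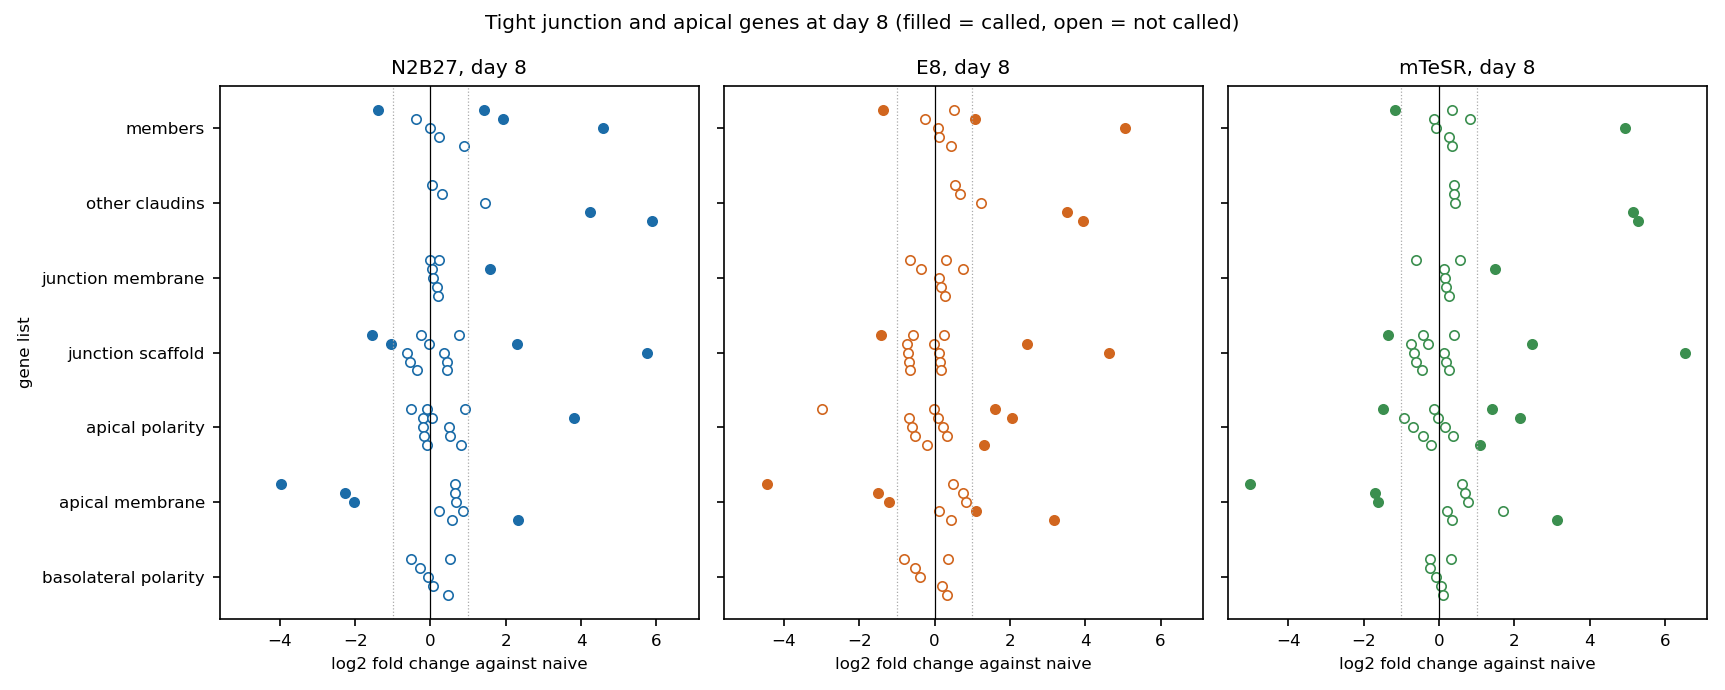
Log2 fold change against naive cells at day 8 in N2B27, E8 and mTeSR of each tested gene of the members and 6 lists of junction and polarity genes, filled where called. The basolateral list has no filled point, and the lists of other claudins and of scaffolds each have 2 filled points to the right in every medium.

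Of 19 other claudins, 5 were tested, and 2 rose at day 8 in each of the 3 media, where 16.9% of all genes rose in N2B27, 18.2% in E8 and 16.9% in mTeSR. CLDN1, a sealing claudin, reached 6.17 and 6.5 CPM with N2B27, 5.06 and 5.42 with E8 and 11.7 and 14.8 with mTeSR, and was at 0 to 0.898 CPM in naive cells. Its log2 fold change was 4.23 ± 0.424, 3.95 ± 0.442 and 5.29 ± 0.391. CLDN11, which forms strands in myelin and between Sertoli cells, was at 78 and 76 counts in N2B27, 15 and 13 in E8 and 29 and 38 in mTeSR, with at most 2 counts in any naive library, and its highest adjusted p was 2.05e-06, in E8. Fitted fold changes of CLDN11 depend on the small count added to 0 and are not given. CLDN12, CLDN15 and CLDN19 were not called at day 8.

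Of 7 further membrane proteins of the junction that were tested, 1 rose at day 8 in N2B27 and in mTeSR, none in E8, and none fell, where 23.9%, 27.5% and 25.1% of all genes were called in N2B27, E8 and mTeSR. This was ESAM, an endothelial adhesion molecule that the naming rule did not pick, at 1.04 CPM in naive cells, 3.08 in N2B27 and 2.89 in mTeSR. MARVELD2, the tricellulin of three-cell contacts and a relative of occludin, was at 63.6 CPM in naive cells, 66.3 CPM in N2B27, 40.2 CPM in E8 and 41.3 CPM in mTeSR at day 8. Its log2 fold changes there were 0.07, -0.66 and -0.61, none called.

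Among 13 scaffolds, 2 rose at day 8 in each of the media, and 2 fell in N2B27 and 1 each in E8 and mTeSR, against 23.9%, 27.5% and 25.1% of all genes called in either direction. MAGI2, a membrane-associated guanylate kinase, had 1.36 ± 0.933 CPM in naive cells (SD, n = 6) and rose to 68.8 ± 1.77 with N2B27, 32.2 ± 4.14 with E8 and 120 ± 4.51 with mTeSR (n = 2 each). Its relative MAGI1 went from 18.1 ± 3.66 CPM up to 89.7 ± 6.52, 99.9 ± 4.73 and 101 ± 5.67. TJP3, which encodes ZO-3, had 20.8 ± 3.89 CPM in naive cells and fell to 7.12 ± 0.408, 7.8 ± 2.29 and 8.12 ± 1.19. Its log2 fold changes were -1.54 ± 0.26, -1.42 ± 0.259 and -1.35 ± 0.267. ARHGEF18, which activates RhoA at the junction, was the other gene that fell in N2B27 (-1.04 ± 0.205). TJP1 had positive and TJP3 negative values at day 8 in each medium, and of these 2 genes TJP3 was the one called.

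Of 12 apical polarity genes tested, 1 rose at day 8 of N2B27, 3 rose in E8, and 3 rose and 1 fell in mTeSR, beside 23.9%, 27.5% and 25.1% of all genes called in N2B27, E8 and mTeSR. PARD3B rose in E8 (4.42 ± 2.22 to 13.4 ± 1.71 CPM, log2 fold change 1.59 ± 0.33) and in mTeSR (1.08 ± 0.36), and PARD6G rose in E8 (1.3 ± 0.269). The others, outside the naming rule, were PARD6A, which rose in E8 and mTeSR (2.05 ± 0.314 and 1.41 ± 0.355), CRB2, called higher in N2B27 and mTeSR against at most 3 counts in naive libraries, and CRB3, which fell in mTeSR (-1.49 ± 0.325). Of 6 basolateral polarity genes none was called in any of the 15 comparisons.

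Of 10 tested genes of the apical membrane, 1 rose and 3 fell at day 8 of N2B27, 2 rose and 3 fell in E8, and 1 rose and 3 fell in mTeSR, beside 23.9%, 27.5% and 25.1% of all genes called. CD24, a small glycosylated surface protein, had 96.6 ± 30.9 CPM in naive cells (n = 6) and rose by day 8 to 491 ± 27.5 with N2B27, 875 ± 135 with E8 and 861 ± 19 with mTeSR. Its log2 fold changes were 2.33 ± 0.156, 3.17 ± 0.153 and 3.14 ± 0.154. EZR, which encodes ezrin and links PODXL to actin, rose in E8 (254 ± 19.6 to 543 ± 4.77 CPM, 1.1 ± 0.102), and its log2 fold changes in N2B27 and mTeSR were 0.58 ± 0.105 and 0.76 ± 0.105. PROM1, prominin of membrane protrusions, fell in all 3 media (-2.02 ± 0.255, -1.2 ± 0.236 and -1.71 ± 0.255). SYTL4, an effector of vesicle docking, fell from 14.1 ± 3.86 CPM to 0.833 ± 0.866 with N2B27 and 0.586 ± 0.496 with E8, and to at most 3 counts per library with mTeSR.

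Of 10 transcription factors and splicing regulators of epithelia, 4 fell and 2 rose at day 8 of N2B27, 3 fell and 2 rose in E8, and 4 fell and 2 rose in mTeSR. Of all tested genes, 7.03% fell and 16.9% rose in N2B27, 9.24% and 18.2% in E8 and 8.2% and 16.9% in mTeSR. GRHL1 had 68.5 ± 20.7 CPM in naive cells (n = 6) and fell to 11.3 ± 0.182 with N2B27, 15.1 ± 0.672 with E8 and 10.6 ± 1.59 with mTeSR. ELF3 fell from 78.8 ± 12.2 CPM to 3.8 ± 1.01, 4.39 ± 0.117 and 2.62 ± 0.641, and KLF5, also listed as a naive marker, from 212 ± 38.9 CPM to 90.9 ± 2.33, 48.4 ± 2.48 and 68.2 ± 1.85. Outside the naming rule, GRHL2, a relative of GRHL1, rose in the same media (1.28 ± 0.363 in N2B27 and 1.08 ± 0.393 in mTeSR), as did GRHL3, from at most 3 counts per naive library, and OVOL2 was the other gene that fell in N2B27 and mTeSR.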

How the data were processed

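RNA of 38 libraries was read with a 3′ tag protocol and deposited as 1 table of 57133 genes. Per the labels and the study's methods, the authors made estimated counts with Salmon 1.9.0 and summed them by gene on hg38, and the submitters' processing notes also name FastQC 0.11.9 and STAR 2.7.10a. The deposited estimated counts were whole numbers and were used without rounding. A 3′ tag gives 1 count per transcript end, so levels were not corrected for length and were not compared between genes. Estimated counts of genes with near-identical copies can be split between the copies.

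Groups came from the sample labels, and all 38 columns were matched to a library by name. Genes were kept by edgeR's filterByExpr, which left 16674 genes with 99.65% of the counts, and normalized by TMM. Changes from naive cells were tested with edgeR 4.0.16 (R 4.3.3) quasi-likelihood tests in a fit of 16 conditions that pooled the 6 naive libraries and the 4 libraries of N2B27 at day 4. All other comparisons came from a fit of the 19 groups. P-values were adjusted by Benjamini-Hochberg over the genes tested, intervals are 2 SE to either side, and both rest on counting error and on the spread between libraries of a group, which for the pooled naive and N2B27 day 4 libraries takes in the experiments and, for naive cells, the coatings. Total counts of 3038046 to 5612354 per library set the precision. The tests were tried on simulated data. Alternatives were DESeq2 1.42.0, other scalings, other filters, a replicate block, the experiment as a covariate, and leaving out each library in turn, where the dispersion was estimated over 15 grid points in place of edgeR's default.

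The genes described and the lists around them were chosen with earlier results of these data known. In each list, the genes named were the 4 with the largest change at day 8 among called genes of at least 10 CPM that did not overlap the naive libraries. For each gene tested, the 3 genes with the highest correlation over the 19 groups were considered. Positions are those of GENCODE on GRCh38, and the E-box sites were read from RefSeq start windows of GRCh38.p14. One gene of the lists is not reported here.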

Additional observations from a re-analysis of the deposited data

Results flagged for a closer look

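Differences between courses or experiments passed their own interaction test for 3 genes (edgeR's quasi-likelihood test, Benjamini-Hochberg adjusted). Of all tested genes, 11% passed the test of E8 against N2B27 and 2.18% that of mTeSR against N2B27. The test between experiments was passed by 11.7% of all tested genes. The course of OCLN in E8 over days 2 to 8 differed from that in N2B27 with an adjusted p of 0.0112, where the difference between the media at day 8 minus that at day 2 was -0.79 on the log2 scale. The course of OCLN in mTeSR over days 4 to 8 differed from that in N2B27 with an adjusted p of 0.00462, a change of -0.73 between day 4 and day 8. CLDN10 differed between E8 and N2B27 over the course with an adjusted p of 0.037, and its change ran the other way, at 0.71. The change of CLDN4 from naive cells on Geltrex to day 4 of N2B27 differed between the experiments with an adjusted p of 0.0303, lower by -2.72 in Ex2, where the naive libraries had 10 and 8 counts against 5 and 2 in Ex1. The OCLN tests gave 0.0519 for E8 and 0.0576 for mTeSR without replicate 2 of N2B27 at day 8, and 0.0904 for mTeSR without replicate 2 of mTeSR at day 8. That of E8 was also lost without a filter on low counts. The other tests were lost without any of 9 libraries for CLDN10, with adjusted p-values of up to 0.118 (replicate 1 of N2B27 at day 3), and without any of 4 for CLDN4, up to 0.193 (replicate 2 of N2B27 at day 4). The cause of these differences was not tested.

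A library stood apart from the other naive libraries by Dixon's criterion in 2 of the 18 groups of 4 or 6 libraries that were checked, where chance gives about 1 in 20. For CLDN10 it was the highest naive library, at 13.3 CPM, a Geltrex library of Ex2. For CLDN3 it was the highest naive library, at 0.218 CPM, which is a single count beside 5 libraries at 0.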

How the results depend on the processing

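Each library was left out in turn, and scaling (RLE or library totals), filter, tool (DESeq2), the fitted libraries, a replicate block and, for changes from naive cells, the experiment and the choice of naive libraries were varied. For 53 single values, these settings changed the direction in 19 cases and ended a call in 43, beside 892 cases with the same direction and call, and none of these values became called. Calls against naive cells numbered 29, 29 to 35 under other settings and 28 to 33 with a library left out. Those of E8 against N2B27 numbered 2, and 1 to 2 with a library left out. The single call of mTeSR against N2B27 became 0 with no filter, with DESeq2 or with the replicate block, 2 when just the compared libraries were fitted, and 0 to 1 with a library left out. The single call between naive cultures and experiments (CLDN4) became 0 with no filter and was 0 to 1 with a library left out. It was also 0 with DESeq2, which gave CLDN4 no adjusted p there, and when just the compared libraries were fitted, where CLDN4 did not pass the filter. For the same reasons CLDN4 has no value when E8 or mTeSR at day 8 was fitted with naive cells alone, nor with DESeq2 for its change between experiments. The 4 interaction calls became 1 without replicate 2 of N2B27 at day 8, 2 without replicate 2 at day 4 and 7 without replicate 2 of E8 at day 3, the lowest and highest being 1 and 7. The junction list gave 181 calls, and 152 to 192 under other settings. The OCLN course call of E8 was lost with no filter (adjusted p = 0.0587). The call of CLDN4 between naive cells was lost with no filter (0.0697), and that in FAX in a fit to those libraries alone (0.108) or with the experiment as a covariate (0.117). The cause was not tested.

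The values whose direction changed were all uncalled. CLDN7 at day 8 of N2B27 was 0.02 with RLE or DESeq2, 0.07 with library totals, 0.01 with the study's filter, 0.03 with the compared libraries alone, 0.04 with the experiment as a covariate, 0.15 against naive cells of the same experiment, and -0.13 to 0.1 with a library left out. Against naive cells of the same experiment, CLDN10 in mTeSR at day 8 was 0.04 and CLDN7 there 0.02, and CLDN10 was -0.13 to 0.04 with a library left out. In E8 at day 8, leaving out a library gave -0.44 to 0.51 for CLDN4, -0.23 to 0.39 for CLDN6 and -0.72 to 0.11 for CLDN7.

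Replicate numbers did not pair the libraries. Over 171 pairs of groups the correlation of same-numbered libraries' deviations had a median of 0.0031 (lowest -0.35, highest 0.258), and 7 exceeded 0.1. Among the single values the replicate block ended 1 call, that of CLDN4 in mTeSR against N2B27 at day 8 (adjusted p = 0.0509). The depth limits CLDN3 and CLDN4, which rest on few counts.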
